A study of Mus musculus with 14 samples.

Results

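RNA from control lymphoma B cells was compared with RNA from normal germinal center (GC) B cells in 8 mouse libraries: 5 control lymphoma libraries (replicates 1 to 5) and 3 wild-type GC libraries (replicates 1, 3 and 4), of 14 in the series. The members were chosen by their labels: the 5 control columns in one count table were joined by gene name to the 3 WT columns of the other. All 8 libraries are labelled as C57BL/6, as spleen, and as wild-type for TET2, the enzyme that oxidises methylated cytosine and whose loss is the subject of the series. The cell type is given as Germinal Center B-cells for the WT libraries and as B-cells for the control libraries, and only the design text of the series calls the latter lymphoma cells. The control titles carry TET2KD-CONTROL, so these libraries are the controls of a knockdown arm. What was introduced into the control cells, how the lymphoma arose, how the GC cells were purified, and the age and sex of the mice are not given by the labels. Whether the replicates of a group are different animals is not stated either, so a p-value reflects only how far these libraries scatter, which may be technical.

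A GC is the site in a lymphoid follicle where B cells that have met antigen divide rapidly, mutate their antibody genes and are selected for binding. Dark zone cells divide and mutate, light zone cells test their receptor against antigen and T-cell help, and BCL6 holds the programme in place. A resting follicular B cell does not divide and recirculates between blood and lymphoid organs through receptors such as CCR7 and S1PR1, and lymphomas of mature B cells can resemble either state.

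The GC libraries held 27191862 to 30434184 counts and the control lymphoma libraries 6691167 to 18598386. Ribosomal and other abundant structural RNA rows, which were left out before scaling, took 0.370% to 1.32% of the GC counts and 57.5% to 80.7% of the lymphoma counts, which left 1525883 to 6282655 lymphoma counts for gene rows. Levels are given as CPM, each count as its part of 1000000 remaining counts, with library sizes scaled by TMM (trimmed mean of M-values). Libraries of one group resembled each other closely, with Pearson's r of log2 CPM across genes of 0.990 to 0.992 within GC and 0.958 to 0.980 within lymphoma, and 0.707 to 0.751 between groups. The 2 cell states lie in separate count tables that differ in depth and in structural RNA share, so cell state, experiment and library make-up cannot be told apart in any result here. As in all bulk RNA, fewer cells of a type and less RNA per cell cannot be told apart either.

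Of 12715 genes tested with edgeR's quasi-likelihood test, 5396 (42.4%) were called higher and 5432 (42.7%) lower in the lymphoma libraries at an adjusted p under 0.05 (Benjamini-Hochberg). In 80.8% of genes the groups did not overlap in log CPM. A call was therefore the usual outcome for a gene. A difference is termed large below where the gene was called, differed at least 4-fold, and had no overlap of log CPM between the groups. There were 2226 large higher genes (17.5% of those tested) and 1063 large lower genes (8.36%). The median log2 fold change (lymphoma over GC, the direction used throughout) of all tested genes was -0.02. Upper-quartile scaling would move that median by 0.28. With all libraries thinned to the 1525883 counts of the shallowest, the counts were 1352 large higher and 656 large lower genes of 10352 tested. Counts for each gene list are read against these shares, and list medians against that median.

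B-cell identity genes were at high levels in both groups. Of 32 tested genes of the B-cell receptor complex and its signalling, 10 rose and 20 fell, with 1 large increase, no large decrease and a median log2 fold change of -0.35. Ms4a1, which encodes CD20, was at 1956, 1972 and 1931 CPM in the GC libraries and 2077, 1987, 1831, 1661 and 1973 CPM in the lymphoma libraries. The groups overlapped, and the gene was not called (log2 fold change -0.04 ± 0.08 SE, adjusted p = 0.67). Other settings called it in opposite directions, higher with upper-quartile scaling (log2 fold change 0.25) and after thinning (0.28), and lower with gene length in the fit (-0.38, the length correction below) and without a filter (-0.22). Cd79a, one of the paired signalling chains of the receptor, was at 1158, 1303 and 1373 CPM in the GC libraries and 729, 758, 635, 695 and 771 CPM in the lymphoma libraries, with each lymphoma library below each GC library (log2 fold change -0.83 ± 0.08 SE, adjusted p = 3.3e-08). Cd79b, the other chain, fell less (log2 fold change -0.46, but 0.12 with gene length in the fit). Cd24a, a surface glycoprotein that varies over B-cell development, fell from a mean of 1078 to 342 CPM. The members that rose most were Bank1, an adaptor in B cells, from 305 to 1348 CPM, Prkcb, a kinase downstream of the receptor, from 173 to 559 CPM, and Malt1, a protease of NF-kB signalling, from 147 to 425 CPM.

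Of 22 B-cell transcription factor genes, 13 rose and 8 fell, with 5 large increases and no large decrease. The median log2 fold change was 0.52, and turned to -0.20 when gene length entered the fit. Ebf1, a factor that specifies the lineage, was at 153, 130.2 and 136 CPM in the GC libraries and 716, 850.2, 869.6, 671 and 698 CPM in the lymphoma libraries, with no overlap (log2 fold change 2.44 ± 0.10 SE, adjusted p = 1.2e-12). Pax5, which maintains B-cell identity, was at 233, 299.5 and 417 CPM in the GC libraries and 445, 472, 521, 428 and 497 CPM in the lymphoma libraries, and rose less (log2 fold change 0.58 ± 0.17 SE, adjusted p = 0.0086). Foxp1, a forkhead factor of mature B cells, was at 200.4, 199 and 179.9 CPM in the GC libraries and 1182, 1249.6, 1412, 1172 and 1230.2 CPM in the lymphoma libraries, above every GC library (log2 fold change 2.69 ± 0.09 SE, adjusted p = 5.1e-14). With the length correction the log2 fold changes of Ebf1 and Foxp1 were 1.53 and 1.29, still above 0. Zeb2, a zinc finger repressor, rose from a mean of 25.8 to 233 CPM (log2 fold change 3.18, and 1.35 with the length correction). Among the factors that fell were Tcf3, which encodes the E2A proteins, from 542 to 171 CPM, Id3, an E protein inhibitor, from 96.2 to 24.6 CPM, and Spi1, which encodes PU.1, from 147 to 49.2 CPM.

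**Figure D1:**
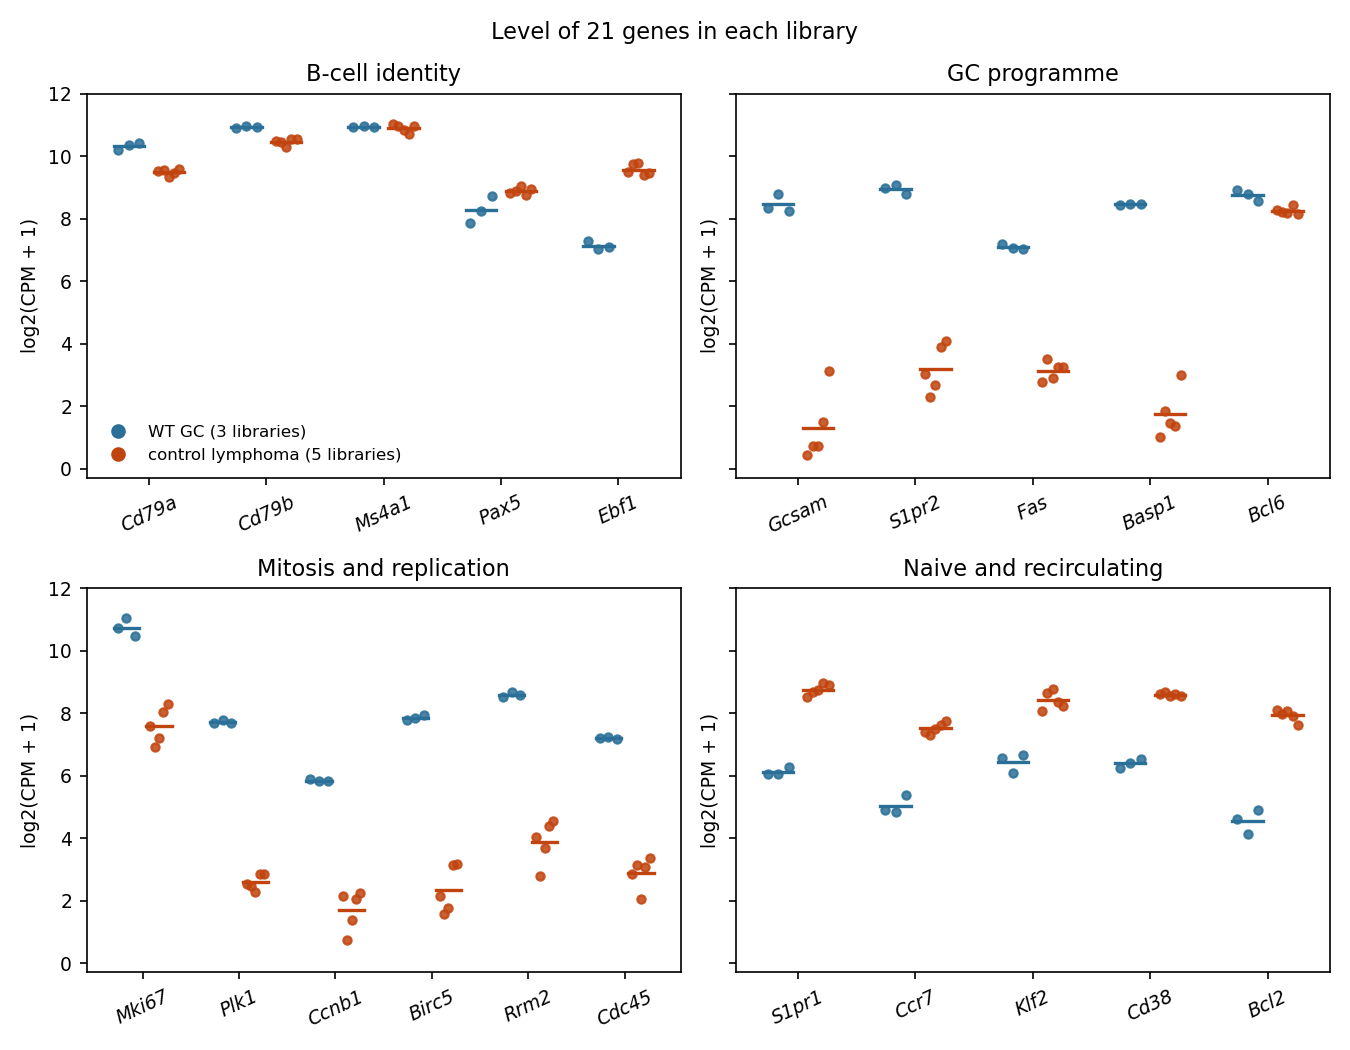
Level of 21 genes in each library, as log2(CPM + 1), with 3 WT GC libraries in blue, 5 control lymphoma libraries in orange and a short line at each group's mean. Identity genes other than Ebf1 overlap or lie close, GC and cell-cycle genes other than Bcl6 are far lower in every lymphoma library, and the naive and recirculating genes are higher in every lymphoma library.

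The GC programme was low in the lymphoma libraries. Of 25 listed genes 24 were tested, of which 19 fell and 3 rose, and 16 of the falls were large, with a median log2 fold change of -3.42. Gcsam, a signalling protein of GC B cells, was at 325, 439 and 303 CPM in the GC libraries and 0.342, 0.65, 0.634, 1.82 and 7.63 CPM in the lymphoma libraries, with the highest lymphoma value in replicate 5 (log2 fold change -7.20 ± 0.48 SE, adjusted p = 6.1e-06, and -8.58 without that library). Every lymphoma library lay far under every GC library. S1pr2, the receptor that keeps B cells inside the GC, was at 501, 539.8 and 443 CPM in the GC libraries and 7.18, 3.90, 5.39, 13.9 and 15.9 CPM in the lymphoma libraries (log2 fold change -5.65 ± 0.30 SE, adjusted p = 5.1e-07). Fas, the death receptor by which GC B cells are usually recognised, was at 143, 133 and 129 CPM in the GC libraries and 5.81, 10.4, 6.50, 8.41 and 8.55 CPM in the lymphoma libraries (log2 fold change -4.14 ± 0.12 SE, adjusted p = 1.6e-14). Basp1, a membrane protein of the list, fell from a mean of 349 to 2.78 CPM (log2 fold change -6.94, and -7.73 without lymphoma replicate 5), and Eaf2, an elongation factor partner, from 206 to 9.49 CPM. Bcl6, the repressor that defines GC B cells, did not follow them: it was at 476, 444 and 372 CPM in the GC libraries and 309.6, 295, 290.1, 344 and 282 CPM in the lymphoma libraries, a fall without overlap but of small size (log2 fold change -0.50 ± 0.09 SE, adjusted p = 5.1e-05). Il21r, the receptor for a T-cell cytokine, was called lower by little (399.6 to 298 CPM, a log2 fold change of 0.01 with the length correction), and Nedd9, an adhesion scaffold, Itpkb, an inositol kinase, and Stap1, an adaptor, rose (log2 fold changes 1.30, 0.91 and 0.57).

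Genes of the GC zones split. Of 14 tested dark zone genes, several of them cell-cycle genes, 12 fell and 1 rose, with 9 large falls and a median of -3.86. Cxcr4, the receptor that draws cells to the dark zone, was at 234, 221 and 181 CPM in the GC libraries and 296, 248, 207, 276 and 438 CPM in the lymphoma libraries, with overlapping groups, and was not called (log2 fold change 0.47 ± 0.24 SE, adjusted p = 0.1), but it was called higher without lymphoma replicate 3 (log2 fold change 0.63), with upper-quartile scaling (0.76), in DESeq2 (0.56), after thinning (0.89) and with the length correction (1.08), at adjusted p of 0.0068 to 0.045. Of 25 light zone and activation genes 11 rose and 9 fell, with 5 large increases, no large decrease and a median of -0.04, which turned positive with median-of-ratios and upper-quartile scaling and with the length correction. The large increases were near the share over all tested genes (17.5%). Cd83, a light zone marker, was at 314, 318 and 316 CPM in the GC libraries and 325, 310.3, 308, 311 and 282 CPM in the lymphoma libraries, and was not called (log2 fold change -0.04 ± 0.07 SE, adjusted p = 0.57), though it was called higher with the length correction (log2 fold change 0.50) and upper-quartile scaling (0.24), and lower without a filter (-0.23). Gpr183, the oxysterol receptor that moves activated B cells out of the GC, was at 17.001, 20.1 and 22.9 CPM in the GC libraries and 195, 222, 270.5, 299.9 and 259.8 CPM in the lymphoma libraries, far above every GC library (log2 fold change 3.65 ± 0.15 SE, adjusted p = 9.8e-11). It lies inside the span of Ubac2, and the counting had no strand option. Cd69, an early activation antigen, rose from a mean of 32.1 to 166 CPM, Rel, an NF-kB subunit, from 43.8 to 247 CPM, and Irf4, a factor of activated B and plasma cells, from 106 to 374 CPM. Among those that fell were Sema7a, a membrane semaphorin, from 192 to 66.6 CPM and Traf1, a signalling adaptor, from 204 to 74.4 CPM.

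Class-switched heavy-chain transcripts other than Igha were scarcer in the lymphoma libraries. Counts of 10 immunoglobulin constant genes were tested, of which 9 fell and none rose, with 6 large falls and a median log2 fold change of -2.66. The 1 gene not called was Igha, with a mean of 18.01 CPM in GC and 46.8 CPM in lymphoma (log2 fold change 1.45). It was at 8.54, 18.9, 34.1, 84.96 and 87.6 CPM in lymphoma replicates 1 to 5. The share of heavy-chain constant counts in switched genes (Ighg1, Ighg2b, Ighg2c, Ighg3, Igha and Ighe) was 19.2%, 26.2% and 18.7% in the GC libraries and 2.36%, 2.04%, 4.24%, 3.90% and 8.75% in the lymphoma libraries, so the groups did not overlap. The rest of these counts lay in Ighm, the constant gene of IgM, which took 73.8% to 81.3% in GC and 91.2% to 98.0% in lymphoma. Ighm itself fell from a mean of 10212 to 6469.9 CPM (log2 fold change -0.66 ± 0.09 SE, adjusted p = 2.4e-06), but was not called with the length correction (log2 fold change -0.06). Ighg2b was at 667, 1220.1 and 991 CPM in the GC libraries and 33.8, 25.4, 26.3, 60.4 and 155 CPM in the lymphoma libraries (log2 fold change -3.93 ± 0.64 SE, adjusted p = 0.001), and Ighg3 at 509, 736 and 505 CPM in the GC libraries and 66.6, 55.9, 35.2, 53.8 and 81.8 CPM in the lymphoma libraries (log2 fold change -3.33 ± 0.27 SE, adjusted p = 1.1e-05). Ighg1 varied most, at 188, 138 and 144 CPM in the GC libraries and 2.73, 7.16, 9.04, 5.91 and 76.3 CPM in the lymphoma libraries, with 1 lymphoma library, replicate 5, far above the other lymphoma libraries. Without that library the log2 fold change of Ighg1 was -4.58 in place of -2.84, and that of Ighg2b -4.68. Igkc, the kappa constant gene, fell from 4652 to 2408 CPM. Short near-identical segments of these loci can share reads, so values of single immunoglobulin genes are uncertain.

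**Figure D2:**
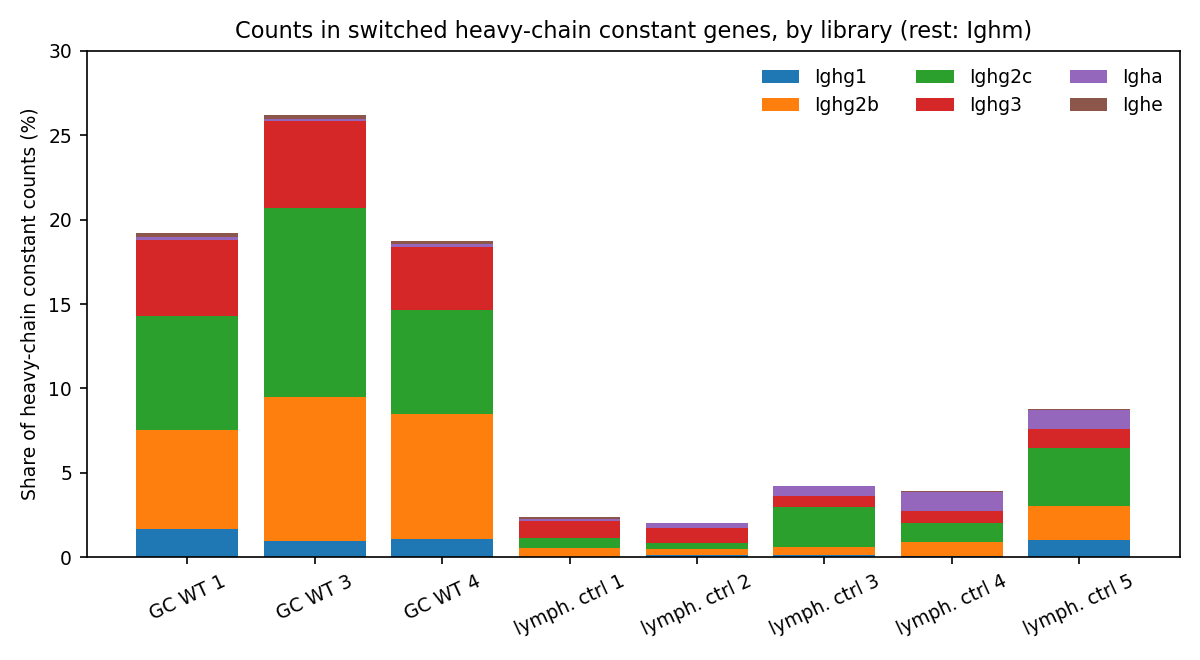
Counts in each switched heavy-chain constant gene as a percent of all heavy-chain constant counts, by library; the remainder up to the whole is Ighm. The 3 GC libraries stand at 18.7% to 26.2% and the 5 lymphoma libraries at 2.04% to 8.75%.

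Variable segment use did not narrow to a single heavy-chain segment in any lymphoma library. The leading heavy variable segment took 6.37% to 12.7% of heavy variable counts in the lymphoma libraries and 7.38% to 20.1% in the GC libraries, and 85 to 96 of 114 heavy segments had a count in each lymphoma library, against 98 to 102 in GC at far greater depth. The leading kappa variable segment took 8.40% to 38.2% in lymphoma and 9.82% to 12.2% in GC. It was Igkv1-117 in every lymphoma library, at 8.40%, 16.1%, 25.1%, 38.2% and 16.8% in replicates 1 to 5. The same segment led in GC replicate 1, at 9.82%. These counts do not join segments into receptors, and reads from unrearranged loci cannot be separated from those of rearranged genes. Of 68 tested heavy segments 3 rose and 20 fell, and of 74 kappa segments 1 rose and 33 fell.

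Genes of cell division were lower throughout the lymphoma libraries. All 30 mitosis genes fell, each as a large difference, with a median log2 fold change of -3.97 and a range from -5.53 to -2.40. Plk1, the kinase of mitotic entry and spindle formation, was at 203, 219 and 206 CPM in the GC libraries and 4.78, 4.55, 3.81, 6.13 and 6.24 CPM in the lymphoma libraries (log2 fold change -5.36 ± 0.12 SE, adjusted p = 9.6e-16). Birc5, which encodes survivin of the chromosomal passenger complex, was at 219.8, 229 and 245 CPM in the GC libraries and 3.42, 1.95, 2.38, 7.72 and 8.09 CPM in the lymphoma libraries (log2 fold change -5.53 ± 0.26 SE, adjusted p = 2.7e-08). Kif2c, a kinesin that corrects spindle attachments, fell from a mean of 121 to 2.94 CPM, and Ccnb1, the cyclin of mitosis, from 56.3 to 2.51 CPM. Mki67, which encodes the proliferation antigen Ki-67, was at 1674, 2096 and 1411 CPM in the GC libraries and 189.7, 118, 145, 259 and 315 CPM in the lymphoma libraries, a lower but measurable level (log2 fold change -3.05 ± 0.34 SE, adjusted p = 1.2e-04). All 41 replication genes also fell, 30 of them as large differences, with a median of -2.61 and a range from -4.59 to -0.87. Rrm2, the regulated subunit of ribonucleotide reductase, was at 365, 405 and 379 CPM in the GC libraries and 15.4, 5.85, 11.7, 19.99 and 22.2 CPM in the lymphoma libraries (log2 fold change -4.59 ± 0.21 SE, adjusted p = 3.0e-08). Cdc45, a helicase partner, fell from a mean of 147 to 6.77 CPM, and Uhrf1, which recruits DNMT1 to new DNA, from 381 to 25.3 CPM.

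Promoters of these cell-cycle genes, which moved together, share short sequences that RefSeq's table (GRCm38.p6) allows to be counted in the 250 bases before each annotated start. TTTGAA, the core of the element known as CHR, stood on either strand in 10 of 26 promoters of 24 mitosis genes (38.5%), in 10.9% of the promoters of all tested genes and in 16.0% of all promoters in the table. CCAAT, the core of the CCAAT box, stood in 22 of the 26 (84.6%), in 35.4% for all tested genes and in 33.9% of the table. Both together stood in 9 of the 26 (34.6%), in 4.06% for all tested genes and in 5.55% of the table. TTTCCCGC or TTTGGCGC, 2 forms of the E2F site, stood in 7 of 36 promoters of 32 replication genes (19.4%), in 0 of the 26 mitosis promoters, in 2.44% for all tested genes and in 1.30% of the table. Matches were counted on both strands and could overlap, some genes have more than 1 promoter, and a match describes letters only. The upstream sequences of Ccnb2, Cdc20, Cdk1 and Mcm5 are shown as examples of these layouts, chosen for their motifs, with TTTGAA and CCAAT, or for Mcm5 the E2F form, on either strand in capitals (5' to 3' along the gene's strand, ending at the base before the start).
Ccnb2, chr9:70421555-70421804, minus strand: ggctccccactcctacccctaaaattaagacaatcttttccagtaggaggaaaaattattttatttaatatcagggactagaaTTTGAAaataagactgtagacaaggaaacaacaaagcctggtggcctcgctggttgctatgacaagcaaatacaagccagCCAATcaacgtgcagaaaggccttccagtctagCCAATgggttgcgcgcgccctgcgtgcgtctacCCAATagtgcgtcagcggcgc
Cdc20, chr4:118437344-118437593, minus strand: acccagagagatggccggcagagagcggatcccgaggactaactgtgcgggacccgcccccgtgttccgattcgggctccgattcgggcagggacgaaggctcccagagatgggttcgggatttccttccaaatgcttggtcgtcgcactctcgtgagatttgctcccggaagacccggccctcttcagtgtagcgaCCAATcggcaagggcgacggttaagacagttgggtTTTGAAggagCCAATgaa
Cdk1, chr10:69352913-69353162, minus strand: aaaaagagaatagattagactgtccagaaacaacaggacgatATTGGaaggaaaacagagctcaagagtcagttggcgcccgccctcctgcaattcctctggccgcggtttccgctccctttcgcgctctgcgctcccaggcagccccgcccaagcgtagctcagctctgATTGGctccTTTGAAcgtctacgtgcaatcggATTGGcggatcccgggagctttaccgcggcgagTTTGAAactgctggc
Mcm5, chr8:75109259-75109508, plus strand: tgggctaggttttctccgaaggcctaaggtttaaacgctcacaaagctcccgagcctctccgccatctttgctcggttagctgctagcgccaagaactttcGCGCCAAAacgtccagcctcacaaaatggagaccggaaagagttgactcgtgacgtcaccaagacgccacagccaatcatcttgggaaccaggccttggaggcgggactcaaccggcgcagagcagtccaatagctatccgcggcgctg
Ccnb2, a mitotic cyclin, was at 262, 263 and 252 CPM in the GC libraries and 9.23, 4.55, 6.03, 9.77 and 10.2 CPM in the lymphoma libraries (log2 fold change -4.98). Cdc20, the activator of the anaphase-promoting complex, was at 292, 298 and 282 CPM in the GC libraries and 5.47, 5.20, 7.30, 9.54 and 8.78 CPM in the lymphoma libraries (log2 fold change -5.25). Cdk1, the mitotic kinase, fell from a mean of 232 to 6.68 CPM, and Mcm5, a helicase subunit, from 805 to 67.02 CPM.

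Regulators of the G1 phase did not fall as a block. Of 18 tested, 7 rose and 10 fell, with 5 large increases and 4 large falls. Cdkn1b, which encodes the inhibitor p27 of resting cells, was at 34.2, 29.2 and 31.6 CPM in the GC libraries and 167, 178, 179, 171 and 242 CPM in the lymphoma libraries (log2 fold change 2.57 ± 0.12 SE, adjusted p = 1.9e-11). Rb1, which holds E2F in check, rose from a mean of 32.3 to 168 CPM, and Ccnd2, a D-type cyclin, from 50.3 to 253 CPM. Ccnd3, the D-type cyclin on which GC B cells depend, fell from 267 to 139.7 CPM, Cdk4, its kinase partner, from 396 to 75.5 CPM, and Cdkn2c, an inhibitor of that kinase, from 90.7 to 8.44 CPM. Growth genes fell: all 30 MYC and ribosome biogenesis genes were called lower, 5 as large differences, with a median of -1.25. Ran, the nuclear transport GTPase, fell from 305 to 40.5 CPM, and Shmt2, the mitochondrial serine enzyme, from 329 to 52.5 CPM. Myc itself rose, at 72.8, 60.3 and 79.1 CPM in the GC libraries and 124, 106, 100.1, 108 and 83.2 CPM in the lymphoma libraries (log2 fold change 0.55 ± 0.12 SE, adjusted p = 3.8e-04). Of 74 nuclear-encoded oxidative phosphorylation genes 71 fell and none rose, 35 of them as large differences, with a median of -1.98 and of -1.62 with the length correction. Their median exon length was 1328 bases, and all tested genes of 1000 to 2000 bases had a median log2 fold change of -0.90.

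Histone genes went the other way. Of 46 tested replication-dependent histone genes, which are transcribed in S phase and whose messages end in a stem-loop in place of a poly(A) tail, 43 rose and 3 fell, with 40 large increases and a median log2 fold change of 3.95. At the depth of the shallowest library 26 of these genes could be tested, of which 20 rose as large differences. Hist1h1e, a linker histone gene, was at 1.78, 2.10 and 1.87 CPM in the GC libraries and 133, 152, 269, 238 and 247 CPM in the lymphoma libraries (log2 fold change 6.77 ± 0.36 SE, adjusted p = 5.4e-07). Hist1h4i fell, from a mean of 19.6 to 4.05 CPM. Other RNAs without a poly(A) tail were also higher: of 43 small nucleolar and spliceosomal RNA genes 41 rose and none fell, with 32 large increases and a median of 4.60, and 33 of the 43 lie inside the span of another tested gene. Lymphoma replicate 3 was the highest library of this list, whose median was 3.94 without it. With the length correction the medians were 3.21 for histone genes and 1.43 for the small RNA genes. Of 70 listed histone genes 46, and of 142 listed small RNA genes 120, were under 1 CPM in every GC library. Those of them that were tested passed the filter only through lymphoma counts. The counts of rises and the medians of both lists were thus partly fixed by the filter. In the same libraries the replication list was lower and the tested histone members were higher, with that limit for the histone list. The share of structural RNA was also higher in the lymphoma libraries. Whether it is linked to the histone list was not tested, and the order of so few libraries cannot decide it. In lymphoma replicates 1 to 5 the mean log2 CPM of the histone list was 2.49, 2.69, 3.75, 3.996 and 3.53. The structural share was 57.5%, 80.7%, 66.2%, 65.5% and 68.2%. Replicate 1 was the lowest in both, while replicate 2 had the highest share and replicate 4 the highest histone mean.

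**Figure D3:**
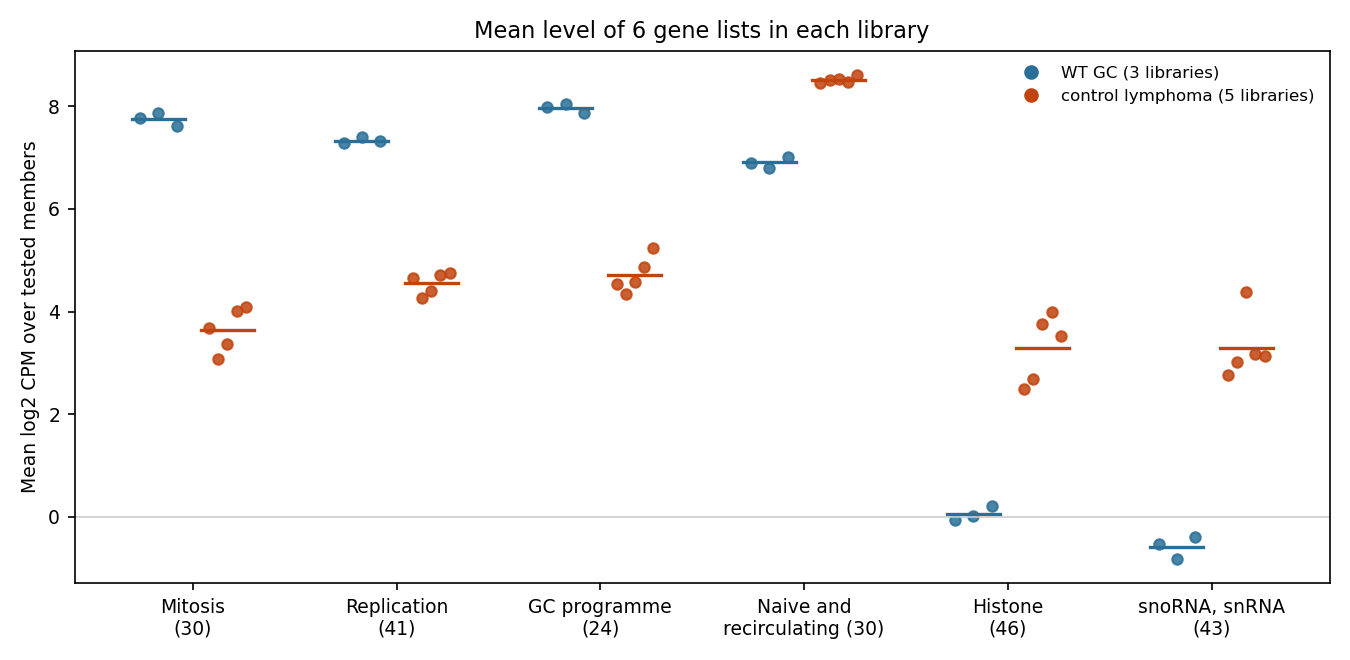
Mean log2 CPM over the tested members of 6 gene lists in each library (members in brackets; 3 WT GC libraries in blue, 5 control lymphoma libraries in orange; lines at group means). Mitosis, replication and GC lists are lower, and the naive, histone and small RNA lists higher, in every lymphoma library. Many histone and small RNA members passed the filter only through lymphoma counts.

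Within the lymphoma group the mitosis and GC lists differed between libraries. The mean log2 CPM of the mitosis list was 3.68, 3.08, 3.36, 4.02 and 4.09 in replicates 1 to 5, and that of the GC list 4.54, 4.35, 4.57, 4.88 and 5.24. In both lists replicates 4 and 5 were the highest, and replicate 2, which had the fewest counts outside structural RNA and the highest structural share, was the lowest. All of these lay under the GC libraries, at 7.62 to 7.86 for the mitosis list and 7.87 to 8.04 for the GC list. Depth and cell make-up of these 5 libraries were not separated.

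Genes of resting, recirculating B cells were higher in the lymphoma libraries. Of 30 tested genes of this list, 24 rose and 3 fell, with 14 large increases, 1 large decrease and a median log2 fold change of 1.97. S1pr1, which guides cells out of lymphoid tissue, was at 64.9, 65.6 and 75.9 CPM in the GC libraries and 363, 407, 426, 492 and 473 CPM in the lymphoma libraries (log2 fold change 2.65 ± 0.11 SE, adjusted p = 5.7e-13). Ccr7, which guides them towards T-cell zones, was at 29.1, 27.5 and 40.1 CPM in the GC libraries and 166, 157, 180.2, 196 and 215 CPM in the lymphoma libraries (log2 fold change 2.51 ± 0.14 SE, adjusted p = 1.0e-09). In each of these homing genes the lowest lymphoma library exceeded the highest GC library. Klf2, the factor that drives S1pr1, was at 93.5, 66.2 and 100.6 CPM in the GC libraries and 269.6, 395, 438, 323 and 296 CPM in the lymphoma libraries (log2 fold change 1.99 ± 0.21 SE, adjusted p = 2.0e-05). Cd38, a surface enzyme that mouse GC B cells lose, was at 74.8, 83.02 and 92.1 CPM in the GC libraries and 389, 407, 369, 391 and 369 CPM in the lymphoma libraries (log2 fold change 2.21 ± 0.09 SE, adjusted p = 3.6e-13). Cr2, the complement receptor of follicular and marginal zone B cells, rose from a mean of 371 to 1505 CPM, Satb1, a chromatin organiser, from 29.99 to 429.5 CPM, and Zfp318, which permits IgD expression, from 49.5 to 557 CPM. Other members rose by less: Cxcr5, the follicle homing receptor, from 332 to 659 CPM and Fcer2a, which encodes CD23, from 270.3 to 433 CPM. The 3 that fell were Vpreb3, a chaperone of receptor assembly (147 to 30.7 CPM), Tnfrsf13c, the BAFF receptor (633 to 309 CPM), and Ltb, a lymphotoxin subunit (442 to 302 CPM, not called with the length correction at a log2 fold change of 0.06). The median exon length of the list was 3022 bases, a length class (2000 to 4000 bases) in which all tested genes had a median of -0.40, and with the length correction the list's median was 1.95.

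**Figure D4:**
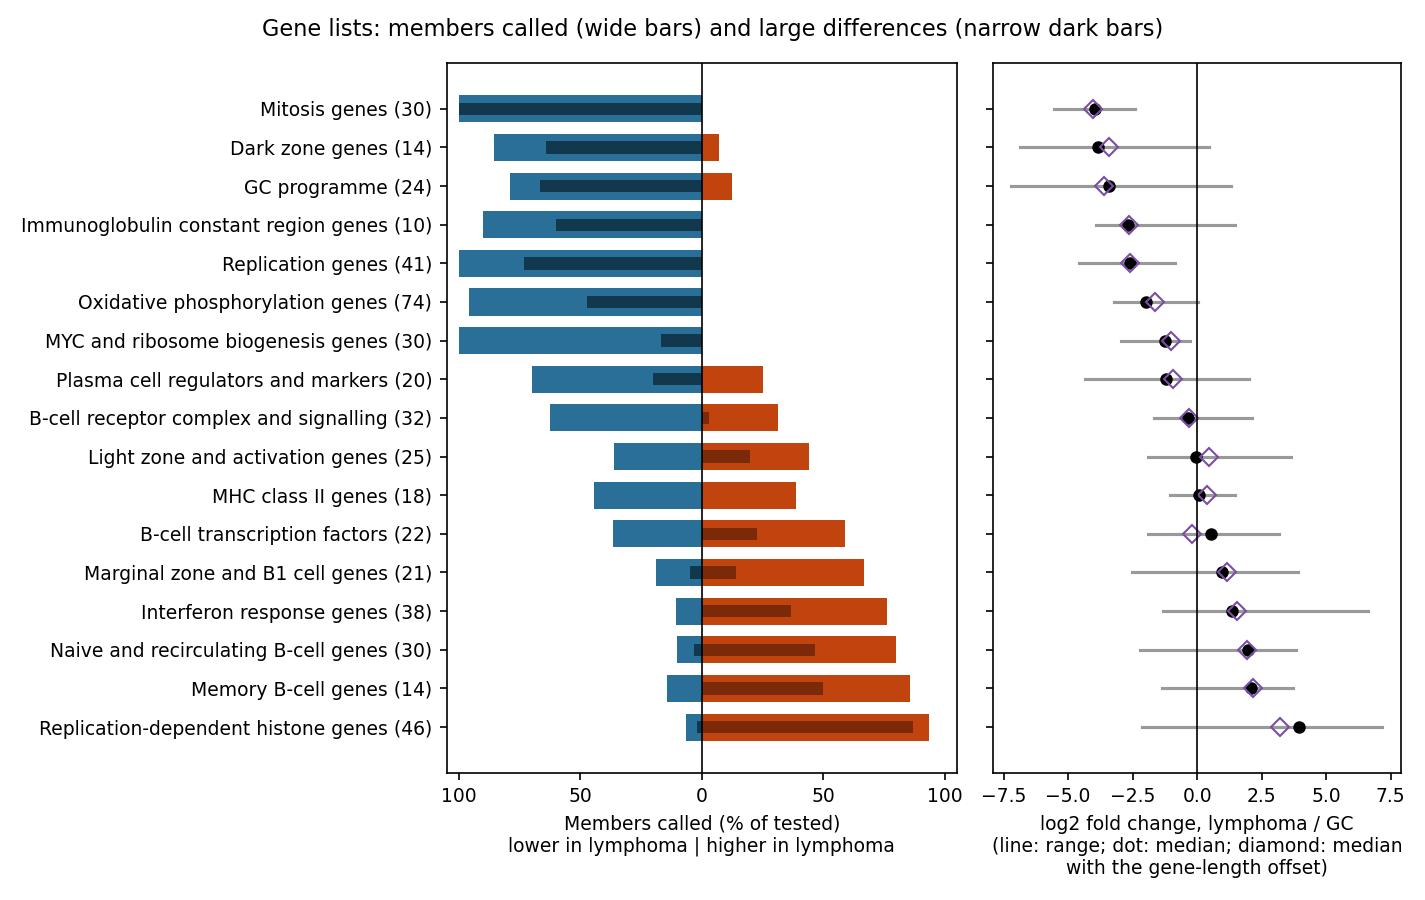
Left, percent of tested members of 17 gene lists called higher (orange) or lower (blue) in lymphoma, with large differences as narrow dark bars; right, the range and median of log2 fold change per list, and the median with the gene-length offset as a diamond. Mitosis, dark zone, GC and replication lists stand at the low end, and memory, naive and histone lists at the high end. The place of the histone list is partly fixed by the filter.

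Memory and marginal zone genes rose as well. Of 14 memory B-cell genes, some of which are also in the naive list, 12 rose and 2 fell, with 7 large increases and a median of 2.07. Tlr7, a receptor for single-stranded RNA, rose from a mean of 19.7 to 151 CPM, and Cd44, an adhesion receptor, from 109 to 214 CPM. Cd27, a costimulatory receptor, rose from 0.866 to 11.6 CPM and lies inside the span of Vamp1. With under 1 CPM in every GC library, Cd27 passed the filter only through lymphoma counts. Nt5e, the ectoenzyme CD73, fell from 105.4 to 39.9 CPM, and Zbtb32, a repressor, from 26.6 to 13.7 CPM. Of 21 marginal zone and B1 genes 14 rose and 4 fell, with a median of 0.95. There were 3 large increases and 1 large fall, and large increases were no more frequent than among all tested genes (17.5%). Notch2, the receptor required for marginal zone B cells, was at 85.3, 93.1 and 93.2 CPM in the GC libraries and 1359.9, 1328, 1416, 1246 and 1384 CPM in the lymphoma libraries, with every lymphoma library far above every GC library (log2 fold change 3.90 ± 0.09 SE, adjusted p = 9.6e-16), and its log2 fold change was 2.89 with the length correction. Mzb1, an endoplasmic reticulum chaperone of antibody secretion, fell from 685 to 117 CPM. Cd5, a B1 and T-cell antigen, was at 1.61, 2.10 and 3.20 CPM in the GC libraries and 3.42, 3.25, 5.71, 2.27 and 4.62 CPM in the lymphoma libraries, with the groups overlapping, and its call (log2 fold change 0.80 ± 0.34 SE, adjusted p = 0.035) was lost without GC replicate 1 or 3 or lymphoma replicate 3 or 5.

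Plasma cell genes were lower on balance. Of 20 tested, 5 rose and 14 fell, with 4 large falls and a median of -1.22. Prdm1, which encodes the plasma cell regulator BLIMP-1, was at 17.2, 24.2 and 18.5 CPM in the GC libraries and 12.6, 9.76, 11.1, 18.4 and 14.6 CPM in the lymphoma libraries (log2 fold change -0.56 ± 0.18 SE, adjusted p = 0.0088), with overlapping groups, and was not called without GC replicate 3 (adjusted p = 0.069), with upper-quartile scaling (adjusted p = 0.17) or after thinning (adjusted p = 0.72). Xbp1, the secretory stress factor, fell from a mean of 229 to 108 CPM, but was not called after thinning (log2 fold change -1.07 at full depth and -0.16 thinned). Sdc1, the plasma cell antigen CD138, was at 6.08, 7.42 and 10.8 CPM in the GC libraries and 4.44, 3.25, 8.72, 17.5 and 13.4 CPM in the lymphoma libraries and was not called (log2 fold change 0.33 ± 0.42 SE, adjusted p = 0.48). Of 31 secretory pathway genes 9 rose and 20 fell, with a median of -0.49.

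Migration receptors rose more often than they fell: 19 of 27 tested rose and 5 fell, with 10 large increases. Itga4, the alpha chain of VLA-4, was at 77.9, 72.7 and 83.02 CPM in the GC libraries and 605, 655, 659, 619.7 and 738 CPM in the lymphoma libraries (log2 fold change 3.07 ± 0.09 SE, adjusted p = 2.1e-14, and 1.69 with the length correction). Ccr9, the gut homing receptor, rose from 0.442 to 15.04 CPM. With under 1 CPM in every GC library, Ccr9 passed the filter only through lymphoma counts. Antigen presentation genes had no large difference. Of 18 MHC class II genes 7 rose and 8 fell, and the median was 0.06, with a change of sign in the fit without a filter (-0.13) and in the fit of all 14 libraries (-0.07). Ciita, the transactivator of the class, rose from 432 to 826 CPM and March1, which removes class II molecules from the surface, from 136 to 378 CPM, whereas H2-Ob, a regulator of peptide loading, fell from 972 to 589 CPM. Of 22 MHC class I and peptide loading genes 5 rose and 11 fell, and the median was -0.21, which turned to 0.08 with upper-quartile scaling and to 0.09 with the length correction. Nlrc5, the class I transactivator, rose from 134 to 468 CPM, and Psmb8, an immunoproteasome subunit, fell from 621 to 176 CPM.

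Interferon response genes were higher in the lymphoma libraries. Of 38 tested, 29 rose and 4 fell, with 14 large increases (9 without GC replicate 3), no large decrease and a median of 1.34. Iigp1, an interferon-inducible GTPase, was at 1.55, 0.84 and 0.624 CPM in the GC libraries and 125, 179.5, 106, 89.3 and 22.9 CPM in the lymphoma libraries, with the lowest lymphoma value in replicate 5 (log2 fold change 6.61 ± 0.84 SE, adjusted p = 2.8e-04). Slfn5, of the Schlafen family, was at 11.6, 9.06 and 10.1 CPM in the GC libraries and 79.3, 102, 128, 92.9 and 117 CPM in the lymphoma libraries (log2 fold change 3.35 ± 0.16 SE, adjusted p = 7.7e-11). Gbp7, a guanylate-binding protein that lies inside the span of Gbp5, rose from a mean of 4.98 to 137 CPM. Isg20, an RNA exonuclease, fell from 33.5 to 13.8 CPM and Bst2, which encodes tetherin, from 27.01 to 19.5 CPM. Tbx21, which encodes T-bet, a factor induced by interferon gamma, fell, at 73.3, 67.9 and 84.7 CPM in the GC libraries and 17.4, 21.5, 21.9, 30.7 and 18.95 CPM in the lymphoma libraries (log2 fold change -1.75 ± 0.14 SE, adjusted p = 6.7e-09), and so did its target Cxcr3, a chemokine receptor (46.4 to 12.5 CPM). In the NF-kB list of 23 tested genes 11 rose and 8 fell, with a median of 0.21 (-0.05 without a filter). Nfkbiz, an inducible nuclear regulator, rose from 30.3 to 225 CPM and Birc3, an inhibitor of apoptosis, from 142 to 387 CPM. Of 24 heat shock and immediate early genes 16 rose and 3 fell: Fosb, an AP-1 subunit, rose from 94.7 to 693 CPM, while Gadd45b, a stress response gene, fell from 176 to 19.2 CPM.

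Survival genes changed in both directions. Bcl2, the anti-apoptotic gene that is low in GC B cells, was at 23.5, 16.7 and 28.5 CPM in the GC libraries and 274, 250.4, 266, 238 and 197 CPM in the lymphoma libraries, with no overlap (log2 fold change 3.42 ± 0.18 SE, adjusted p = 1.7e-08). Of 22 BCL2 family and death genes, 6 rose and 13 fell, with 1 large increase, which was Bcl2, and 5 large falls. Bax, a pore-forming member, fell from a mean of 122 to 24.2 CPM. Bcl2l11, which encodes BIM, was at 75.5, 74.5 and 74.6 CPM in the GC libraries and 66.99, 64.4, 74.2, 75.2 and 85.5 CPM in the lymphoma libraries and was not called (log2 fold change -0.02 ± 0.09 SE, adjusted p = 0.86), but was called lower with the length correction (log2 fold change -0.67) and higher with upper-quartile scaling (0.27). Cflar, the inhibitor of caspase-8, rose from 51.99 to 189 CPM. Among 18 p53 target genes 9 rose and 6 fell. Plk2, a p53-induced kinase, rose from 5.93 to 52.5 CPM, and Gtse1, itself a mitotic gene, fell from 87.3 to 5.99 CPM.

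Genes known as lymphoma tumour suppressors were on balance higher. Of 32 tested, 20 rose and 11 fell, with a median log2 fold change of 0.78. The 5 large increases and 3 large falls were near the shares over all tested genes (17.5% and 8.36%). Crebbp, a histone acetyltransferase, was at 72.5, 75.04 and 71.4 CPM in the GC libraries and 597, 615, 651, 593 and 703 CPM in the lymphoma libraries (log2 fold change 3.11 ± 0.09 SE, adjusted p = 1.2e-14). Cdkn2a, which encodes p16 and p19ARF, was low in both groups and fell, at 5.28, 8.08 and 7.83 CPM in the GC libraries and 0.342, 0, 0.952, 0.227 and 0.925 CPM in the lymphoma libraries (log2 fold change -3.53 ± 0.39 SE, adjusted p = 2.0e-07). Tet2, the gene of interest of the series and wild-type here by label, was at 14.01, 12.5 and 14.97 CPM in the GC libraries and 185, 173, 157, 155 and 156 CPM in the lymphoma libraries, with the lowest lymphoma library far above the highest GC library (log2 fold change 3.57 ± 0.10 SE, adjusted p = 1.3e-14). With the length correction Crebbp and Tet2 were still called higher, at log2 fold changes of 1.84 and 2.74. Tet3 rose from a mean of 79.3 to 323 CPM and Tet1 from 1.38 to 6.19 CPM, though Tet1 was not called with the length correction. Within the list of 24 DNA methylation and demethylation genes 10 rose and 13 fell, with 4 large increases and 9 large falls. The large increases, but not the large falls, were near the shares over all tested genes. Ezh2, the Polycomb methyltransferase that is abundant in dividing GC B cells, was at 303, 309 and 285 CPM in the GC libraries and 49.6, 40.98, 34.9, 47.02 and 47.6 CPM in the lymphoma libraries (log2 fold change -2.77 ± 0.10 SE, adjusted p = 1.1e-13). Among 31 histone-modifying enzymes 17 rose and 13 fell. Kmt2c, a lysine methyltransferase, rose from 81.02 to 727 CPM and Suv39h1, the heterochromatin enzyme, fell from 152 to 24.5 CPM. The median of these enzymes was 0.52 and turned to -0.30 with the length correction. Their median exon length was 6954 bases.

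Markers of other cells stood at low sums in both groups, with some differences. The neutrophil and mast cell list (18 genes, 6 tested) summed to 0.385 to 1.31 CPM in the GC libraries and 12.7 to 96.7 CPM in the lymphoma libraries. All 6 tested genes rose as large differences, but all 18 were under 1 CPM in every GC library. The 6 tested thus passed the filter only through lymphoma counts, and could only come out higher. S100a9, a neutrophil calcium-binding protein, was at 0.269, 0 and 0 CPM in the GC libraries and 22.6, 21.5, 9.52, 26.1 and 3.24 CPM in the lymphoma libraries (log2 fold change 7.27 ± 1.12 SE, adjusted p = 5.1e-04, and a log2 fold change of 10.39 without GC replicate 1, the 1 GC library with counts). Elane, Mpo, Prtn3 and Ctsg, which encode granule proteins of neutrophil precursors, had 0 counts in all 8 libraries. T-cell genes rose in 12 of 15 tested cases, and 2 fell, while the list summed to 386 to 427 CPM in GC and 291 to 452 CPM in lymphoma. Of the 24 listed T-cell genes 16 were under 1 CPM in every GC library, so the filter fixed some of these rises beforehand. Cd3g was at 0.437, 1.29 and 0.702 CPM in the GC libraries and 1.71, 5.20, 10.6, 34.5 and 11.1 CPM in the lymphoma libraries, highest in lymphoma replicate 4 (log2 fold change 4.03, and 3.23 without that library), whereas Cd3e reached at most 0.175 CPM in GC and 2.31 CPM in lymphoma, and Trac 0.156 and 2.27 CPM. Lck, a T-cell kinase that B cells also express, fell from a mean of 203 to 36.4 CPM. Myeloid genes, which summed to 253 to 297 CPM in GC and 349 to 596 CPM in lymphoma, rose in 9 of 21 cases and fell in 2. The rises were near the share called higher over all tested genes (42.4%), and 10 of the 30 listed genes were under 1 CPM in every GC library. Lyz2, the lysozyme of macrophages and neutrophils, rose from 3.39 to 24.8 CPM. Erythroid genes, at 151 to 172 CPM in GC (summed) and 66.3 to 103 CPM in lymphoma, fell in 4 of 6 cases, and Hbb-bt, an adult beta globin, was at 17.3, 14.5 and 21.6 CPM in the GC libraries and 0.684, 0, 0.634, 0.454 and 0.231 CPM in the lymphoma libraries (log2 fold change -5.25 ± 0.31 SE, adjusted p = 5.8e-11). Of 9 tested NK and plasmacytoid dendritic cell genes 7 rose and 1 fell, and the rises included Siglech, a plasmacytoid dendritic cell lectin (0.545 to 7.05 CPM). Here 11 of the 15 listed genes were under 1 CPM in every GC library, with the same limit. Of 6 stromal and endothelial genes 2 rose and 1 fell, and of 3 megakaryocyte genes 2 rose and 1 fell. Under 1 CPM in every GC library were 12 of the 18 listed stromal and endothelial genes and 10 of the 13 listed megakaryocyte genes. The part of these other cells in the differences above was not tested.

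Sex-linked transcripts separated the groups. Eif2s3y, a Y-linked gene, was at 54.1, 47.7 and 61.1 CPM in the GC libraries and 0 CPM in all 5 lymphoma libraries, at least 351-fold lower in lymphoma against a floor of 3 counts over the group, and the 3 other Y-linked genes of the list were also at 0 counts in every lymphoma library. Xist, which coats the inactive X, was at 514.4, 432 and 417 CPM in the GC libraries and 3941, 3907, 3361, 3391 and 3413 CPM in the lymphoma libraries (log2 fold change 2.99 ± 0.10 SE, adjusted p = 5.8e-14). The GC libraries held both Xist and Y-linked counts in each library, and the lymphoma libraries Xist alone. Sex makes a further difference that cannot be told apart from cell state here.

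The genes with the largest changes at a mean of at least 10 CPM were of 2 kinds. Predicted genes and immunoglobulin, T-cell receptor, mitochondrial, sex-linked, structural, small RNA and replication-dependent histone genes were left out of this ranking. Some of those changed more than genes named here, with log2 fold changes up to 11.56 in small RNA genes and down to -12.46 in Y-linked genes. The lowest in lymphoma included Gcsam and Basp1 of the GC programme, and Tox2, a transcription factor of the TOX family, at 60.8, 44.95 and 50.1 CPM in the GC libraries and 0, 0, 0.317, 0.227 and 1.39 CPM in the lymphoma libraries (log2 fold change -6.79 ± 0.32 SE, adjusted p = 6.2e-11). Others were H1fx, a linker histone variant with a polyadenylated message, at 67.1, 58.9 and 64.5 CPM in the GC libraries and 0, 0, 0, 0 and 0.462 CPM in the lymphoma libraries, Pipox, a peroxisomal oxidase, at 32.8, 30.5 and 33.4 CPM in the GC libraries and 0.342, 0, 0, 0 and 0 CPM in the lymphoma libraries, and Hbb-bh1, an embryonic beta-like globin gene, at 39.7, 47.4 and 48.8 CPM in the GC libraries and 0, 0, 0, 0 and 0.231 CPM in the lymphoma libraries. Emp2, Rsph1 and Dlg5 were also among the 10 lowest, with lymphoma means of 0.0462, 0.1 and 0.141 CPM against GC means of 13.9, 15.1 and 24.03 CPM. At such levels 1 lymphoma library with a few counts sets the fitted fold change: that of H1fx was -9.14 with replicate 5 and -12.81 without it, and that of Tox2 -6.79 and -7.99. Of the 10 highest, 6 lie inside the span of another tested gene: Lrrc18 in Wdfy4, Fam196b in Dock2, B3galt2 in Cdc73, Lrrc4 in Snd1, Kctd4 in Gtf2f2 and Gcnt7 in Rtfdc1. Fam196b was at 0.336, 0.245 and 1.21 CPM in the GC libraries and 181, 209, 218, 181 and 166 CPM in the lymphoma libraries. The other 4 were Plekhb1, Nexn, Phxr4 and Rassf10. Gcnt7, Kctd4, Lrrc4 and Plekhb1 were at 0 CPM in every GC library. On the scaling of all 14 libraries, B3galt2, Nexn, Phxr4 and Lrrc18 reached at most 0.104, 0.0667, 0.0772 and 0.381 CPM in GC. Such genes, and Rassf10, passed the filter only through lymphoma counts and could only come out higher. H1fx, Pipox, Hbb-bh1, Emp2, Rsph1 and Dlg5 passed it only through GC counts and could only come out lower. Rassf10 had 0 counts in all GC libraries and 0.684, 13.7, 239, 17.5 and 5.09 CPM in the lymphoma libraries, so its size rests mainly on replicate 3. Its adjusted p was 0.044, and it was no longer called without any 1 of the 3 GC libraries or without lymphoma replicate 1, 2, 4 or 5, at adjusted p of 0.054 to 0.077.

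Position and length of genes separated higher from lower genes more generally. Of the 2226 large higher genes 31.4% (698) lay inside the span of another tested gene, of the 1063 large lower genes 1.41% (15), and of all tested genes 7.61%. The median log2 fold change was 2.99 for genes with up to 500 exon bases, -0.90 at 1000 to 2000 bases, 0.17 at 4000 to 8000 bases and 1.02 above 8000 bases. Of the GC, dark zone, mitosis, replication and naive lists described above, no tested member lies inside another tested gene. Of 150 named genes with a call, 39 moved by more than 1.5-fold when a smooth offset on gene length entered the fit, 3 changed sign (Cd79b, Il21r and Ltb), and 5 lost their call. The long genes Kmt2c, Satb1 and Bcl2 moved in this way, to log2 fold changes of 1.31, 2.06 and 2.58, still called higher. Cflar, Tet3 and Xist moved to 0.61, 0.85 and 1.29, Cd79a to -0.24 and Igkc to -2.60. After thinning, 15 of 142 named genes lost their call: Bcl6, Bst2, Ccnd3, Cd27, Cd79b, Hist1h4i, Il21r, Ltb, Myc, Pax5, Prdm1, Slc2a3, Tyk2, Xbp1 and Zbtb32.

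**Figure D5:**
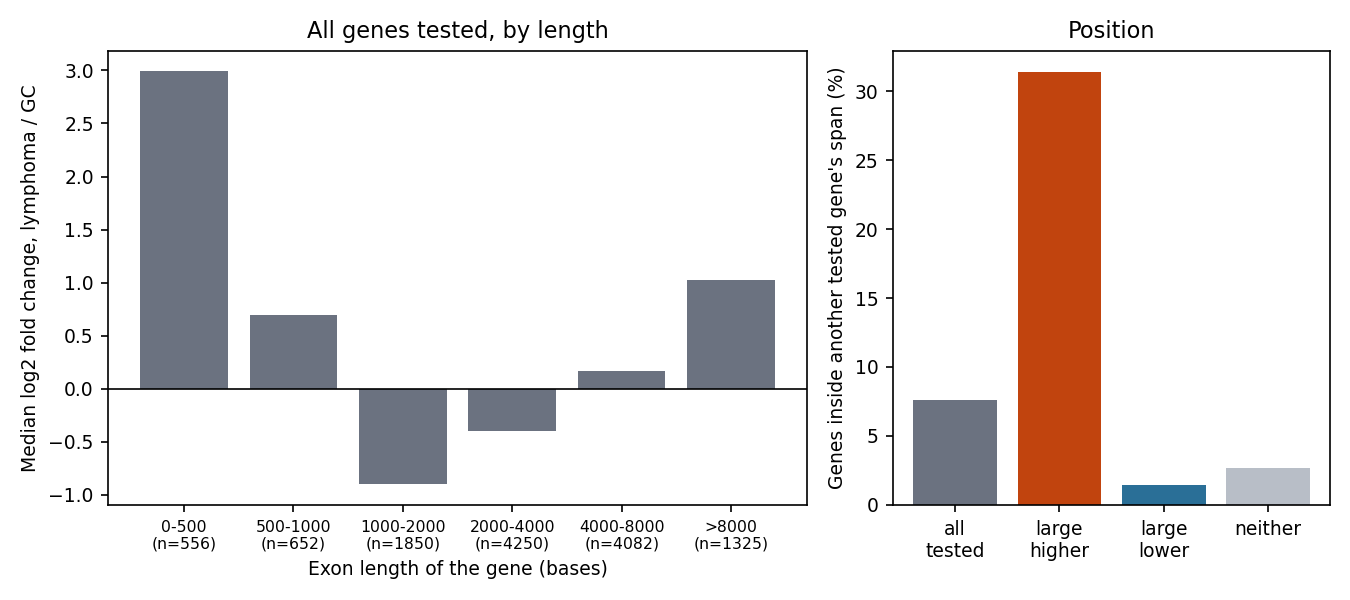
Left, median log2 fold change of all tested genes by exon length in bases (gene counts in brackets); right, percent of genes inside the span of another tested gene, for all tested, large higher, large lower and the remaining genes. The shortest class stands at 2.99, and 31.4% of large higher genes lie inside another gene against 1.41% of large lower genes.

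The same contrast can be read in libraries that were not used above: 4 GC libraries labelled TET2 Knock-Out and 2 lymphoma libraries labelled TET2 Knock-Down, which share no sample with the 8 but come from the same 2 tables. Differences there were taken between group means of log2 CPM with a prior count of 2, on the scaling of all 14 libraries. Those above are fitted log2 fold changes, so the sizes of the 2 measures are not directly comparable. Of the 2226 large higher genes 1842 (82.7%) were at least 4-fold higher there without overlap, and of the 1063 large lower genes 641 (60.3%) at least 4-fold lower. Of all 12715 genes 16.1% were at least 4-fold higher and 5.60% at least 4-fold lower there without overlap. The sign was opposite for 2 of the large higher and 17 of the large lower genes. The median difference in log2 CPM was -2.12 for the GC programme, -2.52 for mitosis genes, -1.99 for replication genes and 1.96 for the naive list, against -3.42, -3.97, -2.61 and 1.97 above, and -0.02 for all genes. For other lists the median was -0.03 for the B-cell transcription factors (0.52 above), -0.53 for the immunoglobulin constant genes (-2.66 above) and -0.38 for the plasma cell genes (-1.22 above). Tet2 itself was at 12.8 to 15.5 CPM in the GC libraries labelled Knock-Out, against 12.4 to 14.8 CPM in WT on the same scaling, so counts over the whole gene did not separate these labels. It was at 148 and 136 CPM in the lymphoma libraries labelled Knock-Down, against 154 to 182 CPM in the controls. Ighg2b was at 543 to 939.8 CPM in these GC libraries and at 486 and 125 CPM in these lymphoma libraries. These libraries differ in TET2 by label and share the split between tables, so they repeat the contrast and do not separate cell state from experiment.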

How the data were processed

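RNA was extracted with Trizol and RNeasy columns and made into TruSeq stranded mRNA libraries (a kit that selects poly(A) RNA), for all 14 libraries alike, per the labels' protocols. The authors deposited 2 tables of whole-number counts per gene name, made with featureCounts 1.5.1 over exons with no strand option, per the file headers. STAR 2.3.0e and GRCm38.p3 are named in the submitters' processing notes, and no other setting is given in the sources used here. Both tables were joined by gene name, with 0 sample columns unmapped. Before scaling, 191 ribosomal and other structural RNA entries were left out, 3 of them (Gm15564, Mir6236 and Gm26917) after the most abundant entries had been seen. The entries left out included Lars2, a protein-coding gene by RefSeq, which held up to 13.9% of counts in a lymphoma library and 0.0924% in a GC library. The ribosomal RNA entry n-R5-8s1 stayed in, at a mean of 2.04 CPM in GC and 631 CPM in lymphoma.

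The 8 libraries were filtered (filterByExpr), TMM-scaled and fitted in edgeR 4.0.16 (robust quasi-likelihood test, R 4.3.3), with Benjamini-Hochberg adjustment over all 12715 genes and log CPM with a prior count of 2. The fit was tested on simulated counts for this contrast, in which 200 of 12715 genes were changed. There the fit found 81% of the 2-fold and 94% of the 4-fold changes, and 4.89% of its calls were false. In the data 85.2% of genes were called, a far larger part than was simulated, so these rates need not hold for the reported calls. DESeq2 1.42.0, limma-voom 3.58.1 and the other settings of the closing section were alternatives. "Length correction" means a smooth offset on exon length in each library, and median-of-ratios scaling was run in edgeR.

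Members and gene lists were chosen with earlier results of these data known. Genes were named by rule: a list of fixed genes, the 10 largest changes each way among large differences at a mean of at least 10 CPM, and per list up to 3 members each way. The 10 largest were taken after leaving out the gene classes given with that ranking. Ccnb2, Cdc20, Cdk1 and Mcm5 lie outside it, and some genes under it are not reported here. The listed genes Ighd, Iglc1, Iglc3, Cd58, Hbb-b1 and Ahsp were not analysed here. Total depth ranged from 6691167 to 30434184 counts, and depth outside structural RNA limits genes with few counts in the lymphoma libraries.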

Additional observations from a re-analysis of the deposited data

Results flagged for a closer look

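In 200 gene and list values, the 5 control lymphoma libraries were searched for 1 library that stood apart from the other 4 (gap to the nearest value over the whole range above 0.71), and 17 values did so. Chance gives about 1 in 20. Among B-cell genes, replicate 5 was high for Cd24a, at 407 CPM against 315 to 331 CPM in the other lymphoma libraries, and for Cdkn1b, at 242 CPM against 167 to 179 CPM. Replicate 1 was high for Nedd9, at 573 CPM against 518 to 526.2 CPM. Replicate 4 was high for Cd44, at 299 CPM against 185 to 202 CPM, and for Ly6d, at 602 CPM against 446 to 486 CPM. Replicate 3 was low for Siglech, at 2.86 CPM against 7.04 to 9.76 CPM.

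For 4 genes that were nearly absent from lymphoma the gap rests on a few counts in 1 library with 0 in the rest: H1fx at 0.462 CPM, Hbb-bh1 at 0.231 CPM and Emp2 at 0.231 CPM in replicate 5, and Pipox at 0.342 CPM in replicate 1. B3galt2 was low in replicate 5, at 25.7 CPM against 38.2 to 43.1 CPM, and Phxr4 high in replicate 2, at 31.9 CPM against 18.3 to 21.4 CPM.

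Of list means in log2 CPM, replicate 4 was high for migration receptors (6.96 against 6.73 to 6.79) and replicate 2 low for DNA methylation genes (5.07 against 5.26 to 5.31) and for erythroid markers (1.04 against 1.598 to 1.76). Replicate 3 was high for small nucleolar and spliceosomal RNA (4.38 against 2.76 to 3.16) and low for NK and plasmacytoid dendritic cell markers (3.20 against 3.46 to 3.56).

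The structural RNA rows that the comparison left out, Lars2 among them, took at least 57.5% of counts in every control lymphoma library, against 0.370% to 1.32% in the GC libraries.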

How the results depend on the processing

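Calls and directions mostly held under 21 other fits of the same contrast. Of the named genes' comparisons, 3138 kept their direction and call, 68 kept the direction and lost the call, 9 gained one, and 23 changed sign. The cause of these shifts was not tested. When all libraries were thinned to the shallowest there were 2762 higher and 2503 lower genes, with 1352 large higher and 656 large lower, from fewer genes tested (10352). A test against a minimum 2-fold difference gave 3298 higher and 2591 lower genes. Without a filter 1937 genes were large and lower. Leaving out genes that lie inside another gene, a choice made after seeing the data, left 1528 large higher and 1048 large lower genes.

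The median of the naive list was 2.25 with upper-quartile scaling, 1.78 without a filter, 1.84 with all 14 libraries in 1 model, 2.19 after thinning, and 1.84 to 2.01 with 1 replicate left out. That of the replication list was -2.33 with upper-quartile scaling. Several small medians changed sign. The light zone median was 0.048 with median-of-ratios scaling, 0.24 with upper-quartile scaling, 0.047 with DESeq2, 0.63 after thinning, 0.46 with the length correction, and -0.063 to 0.00077 with 1 replicate left out. The MHC class I median was 0.075 with upper-quartile scaling and 0.089 with the length correction. The MHC class II median was -0.13 without a filter and -0.073 with all 14 libraries, and the NF-kB median was -0.046 without a filter. After thinning the stromal median was -0.21. With the length correction the medians of B-cell transcription factors and histone-modifying enzymes were -0.20 and -0.30.

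Genes not called in the reported fit also changed sign, and some of these settings called them. Ms4a1 was at 0.055 with median-of-ratios scaling and with DESeq2, 0.25 with upper-quartile scaling, 0.28 after thinning (both called higher), -0.38 with the length correction and -0.22 without a filter (both called lower), and -0.074 to 0.023 with 1 replicate left out. Cd83 was at 0.048, 0.047, 0.24 and 0.16 under the same settings, median-of-ratios, DESeq2, upper quartile and thinning, 0.50 with the length correction, -0.23 without a filter, and -0.069 to 0.00077 with 1 replicate left out. Bcl2l11 was at 0.075, 0.078, 0.27 and 0.26 in that order, -0.67 with the length correction, and -0.085 to 0.027 with 1 replicate left out. Sdc1 was at -0.59 after thinning. With the length correction Cd79b, Il21r and Ltb were at 0.12, 0.0062 and 0.058.

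Replicate numbers did not pair the libraries: deviations of same-numbered GC and lymphoma libraries correlated at 0.025, -0.030 and 0.029. A fit with the replicate number as a block gave 5254 higher and 5308 lower genes, and Nt5e and Cd5 were not called in it.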

Other observations

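Several gene groups outside the comparison of GC and resting states also differed between the control lymphoma and the GC libraries. Glycolysis genes were lower on balance: of 23 tested 14 fell and 7 rose, with a median log2 fold change of -0.84. The 2 large falls were near the share over all tested genes (8.36%). Ldha, which encodes lactate dehydrogenase, was at 495, 604 and 621 CPM in the GC libraries and 151, 137, 129, 146 and 134 CPM in the lymphoma libraries (log2 fold change -2.04 ± 0.09 SE, adjusted p = 8.2e-13). Tpi1, an isomerase of the pathway, fell from a mean of 338 to 50.1 CPM and Pkm, the pyruvate kinase, from 679.7 to 173 CPM, whereas Slc2a3, a glucose transporter, rose from 22.7 to 41.4 CPM. Of 81 cytosolic ribosomal protein genes 52 fell and 14 rose, with a median of -0.76, and the many pseudogenes of this family make single values uncertain.

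Cytokine receptor and JAK-STAT genes rose more often than they fell, at 21 and 4 of 31 tested. The 6 large increases were near the share over all tested genes (17.5%). Il5ra, the receptor chain for interleukin 5, was at 5.54, 3.50 and 4.64 CPM in the GC libraries and 35.5, 42.9, 42.4, 22.04 and 21.5 CPM in the lymphoma libraries, highest in replicates 2 and 3 and above every GC library (log2 fold change 2.82 ± 0.27 SE, adjusted p = 8.7e-07). Stat4, a signal transducer, rose from a mean of 11.4 to 63.7 CPM and Socs3, a feedback inhibitor, from 5.03 to 42.5 CPM, while Tyk2, a receptor-bound kinase, fell from 112 to 80.2 CPM. Toll-like receptor genes split, with 13 of 21 higher and 7 lower. Tlr4, the lipopolysaccharide receptor, rose from 13.03 to 62.96 CPM and Irak3, an inhibitor of the pathway, from 7.52 to 83.9 CPM, while Myd88, the shared adaptor, fell from 75.1 to 32.2 CPM. Among 12 genes tied to T-bet and age-associated B cells 7 rose and 3 fell, so Tbx21 and Cxcr3 moved against most of the list. Nr4a2, a nuclear receptor of the list, was at 0.134, 0.49 and 0.156 CPM in the GC libraries and 11.96, 14.96, 7.93, 6.59 and 8.78 CPM in the lymphoma libraries (log2 fold change 5.15 ± 0.44 SE, adjusted p = 7.5e-09). Nr4a2 passed the filter only through lymphoma counts and could only come out higher. Of 10 tested B-cell precursor genes 6 rose and 2 fell. Since 11 of the 18 listed were under 1 CPM in every GC library, the filter fixed some of these rises beforehand. Ly6d, a surface antigen of the lineage, rose from 218 to 494 CPM, and Flt3, a cytokine receptor of progenitors, fell from 63.7 to 6.05 CPM. Of 9 GIMAP genes, which encode small GTPases of lymphocytes, 6 rose and 2 fell, none as a large difference.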
